A study of Mus musculus with 6 samples.

Results

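The mitochondrial genome of the mouse is a small circle that encodes subunits of the respiratory chain and of ATP synthase, the ribosomal RNAs of the mitochondrial ribosome, and the tRNAs that read its messages. The 37 mitochondrially encoded genes, found by symbols that begin with mt-, and 4 nuclear copies of such genes, Gm29216, Gm28661, Gm28437 and Gm10925, were examined here. These 41 genes were chosen by name out of 55267 genes, and each was represented by 1 transcript. Read by transcript type, the 37 comprised 13 protein-coding genes, 2 rRNA genes and 22 tRNA genes. All 41 reached the mean of 1 FPKM (fragments counted relative to transcript length and library total, a level per length) set for testing, as did 12939 genes in all.

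RNA was read from intestine of mice given 1 ml of water by gavage once a day for 14 days. The cold water group (3 libraries) received water at 0 to 4 °C at 8 am, and the control group (3 libraries) received water at 20 to 25 °C at 9 am, so water temperature and hour of gavage cannot be told apart. All animals were housed at 22 °C. The sources used here give no strain, sex, age or genotype, and nothing says that each library was a separate animal, so p-values measure the spread between these libraries, which may be technical.

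Both strands of the mitochondrial genome are transcribed as long precursors, from which the tRNAs are cut out and the rRNAs and messages between them are released. The plus strand of the annotation holds most genes, while the minus strand carries mt-Nd6 and 8 of the tRNAs. Such messages are very abundant in cells that spend much energy on transport, among them the absorptive cells of the small intestine. Over evolution, stretches of this genome were also copied into the chromosomes. The copies on mouse chromosome 1 are so recent that reads from both places can be the same letter for letter.

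The labels name the tissue once as proximal jejunum and once as colon. Of 8 markers of small intestinal absorptive cells, all 8 were at 1 FPKM or more in each library, with summed levels of 27067 to 44409 FPKM in cold water libraries and 23692 to 34036 FPKM in controls. Of 7 colon markers, 1 was at 1 FPKM or more in each library (B4galnt2, mean 57.1 FPKM), and Scnn1g, a subunit of the colonic sodium channel, was at 0 in every library. Totals ran from 72690433 to 78668871 estimated counts per library, about 19281300 to 20867100 fragments. In such bulk tissue, fewer cells of a type and less RNA per cell cannot be told apart.

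The 4 nuclear copies are shown first, because their sequence decides how every level of mt-Co1, mt-Co2, mt-Co3 and mt-Atp6 can be read. All lie on the minus strand of chromosome 1 (GRCm38) within a block of 7 copies, chr1:24611535-24616197, that spans 4663 bases. Over the 4149 bases at which copies and mitochondrial genes were aligned, 7 mismatches were found. Gm28661 (chr1:24614885-24615565) matched 681 of the 684 bases of mt-Co2 with 0 mismatches. Gm28437 (chr1:24613189-24613971) matched 783 of the 784 bases of mt-Co3 with 0 mismatches. Gm10925 (chr1:24613974-24614651) matched 678 of the 681 bases of mt-Atp6 with 0 mismatches. A read that lies wholly within these stretches cannot be placed by its letters.

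Gm29216 (chr1:24615706-24616197) held the last part of mt-Co1, from base 1054 to base 1545 of that gene, and differed from it at 6 positions. Counted from the first base of mt-Co1, with the mitochondrial base first, these were T1056A, C1057T, A1059G, A1060G, C1062A and A1066T. All 6 fall among the first 13 bases of the copy, so only reads across its first end can be told apart by sequence. The first 40 bases of the copy and the matching stretch of mt-Co1 (MT:6381-6420, plus strand) are shown with the differing bases in capitals, and the first 40 bases of Gm28661 and mt-Co2 as a pair with none. Sequences are from the GENCODE M21 transcripts of GRCm38.
mt-Co1, MT:6381-6420: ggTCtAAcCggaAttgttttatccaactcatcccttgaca
Gm29216, chr1:24616158-24616197: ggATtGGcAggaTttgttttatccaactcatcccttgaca
mt-Co2, MT:7013-7052: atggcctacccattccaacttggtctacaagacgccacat
Gm28661, chr1:24615526-24615565: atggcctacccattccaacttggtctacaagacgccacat

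The deposited levels gave the copies nearly as much signal as the genes they were copied from. The FPKM of Gm28661 was 0.957 to 1.04 times that of mt-Co2 over the 6 libraries. For Gm28437 over mt-Co3 the ratio was 0.943 to 0.988, and for Gm29216 over mt-Co1 it was 0.729 to 0.893. Gm10925 stood apart with 4.08 to 4.39 times the FPKM of mt-Atp6, although the aligned sequences are identical. The sources used here do not say how reads with several possible places were assigned, so the level of a copy and that of its gene are one uncertain pair and are no measure of transcription from chromosome 1.

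The 3 other copies of the block, which are not among the 41 genes, showed the same closeness for short genes and less for a long one. Gm10222 was at 0.959 to 1.01 times mt-Nd4l and Gm28438 at 0.946 to 1.01 times mt-Nd3, while Gm28439, which holds bases 1 to 876 of mt-Nd4, was at 0.327 to 0.424 times mt-Nd4. Thus 7 of the 13 protein-coding genes have an annotated copy in this block. mt-Atp8 shares with it at least the 43 bases by which it overlaps mt-Atp6. The copies run in the order of their genes, and mt-Ts1, mt-Td, mt-Tk, mt-Atp8, mt-Tg and mt-Tr lie wholly or mostly between copied genes. These genes may therefore share more sequence with the block. The bases of the block between its copies were not aligned to any gene, so sharing by further genes, tRNA genes among them, was not tested. When all 7 copies were added to their genes, the 13 log2 differences between the groups ran from -0.30 to -0.13, against -0.33 to -0.13 without the addition.

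**Figure D1:**
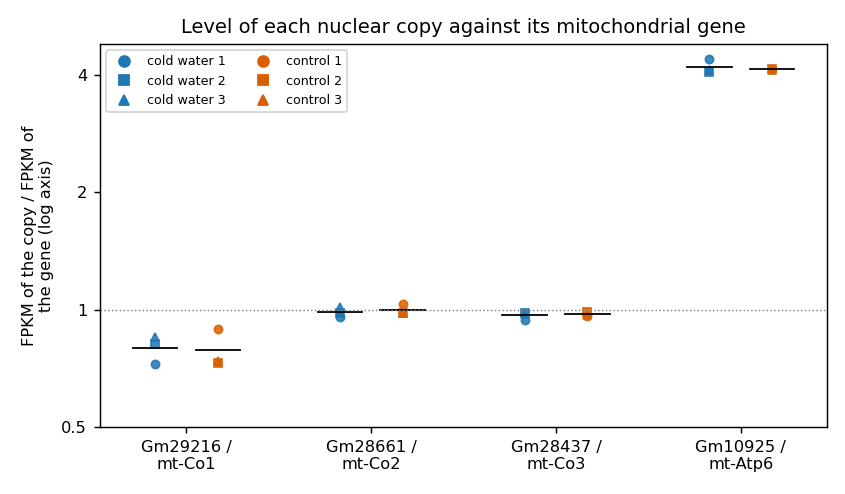
FPKM of each nuclear copy divided by the FPKM of its mitochondrial gene (vertical axis, log scale), with 1 point per library and a bar at the group mean (n = 3 each). The Gm28661 and Gm28437 ratios lie close to 1 in all 6 libraries, Gm29216 lies at 0.729 to 0.893 and Gm10925 at 4.08 to 4.39.

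Between the groups, the copies did not pass the test. Gm29216 was at 14077, 18691 and 17983 FPKM in cold water 1, 2 and 3, against 15686, 18757 and 21061 FPKM in control 1, 2 and 3. Gm28661 was at 9756, 11682 and 10509 FPKM in cold water libraries and at 9876, 11930 and 13891 FPKM in controls. For both, control 3 was the highest library and the groups overlapped. Gm28437 averaged 8575 ± 614 FPKM in cold water and 9446 ± 1546 FPKM in control libraries, and Gm10925 averaged 8955 ± 941 and 10074 ± 2196 FPKM in the same order (SD, n = 3 each). Their log2 differences, cold water minus control on the scaled count scale, were -0.17 to -0.11, with adjusted p of 0.964 to 0.984 (edgeR's quasi-likelihood test, adjusted by Benjamini-Hochberg over the 12939 genes).

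Among the mitochondrial messages, mt-Co1 and mt-Co2, subunits of cytochrome c oxidase, the last enzyme of the respiratory chain, had the highest deposited levels per length. mt-Co1, the subunit that carries the oxygen-reducing site, was at 19314, 22868 and 21073 FPKM in cold water 1, 2 and 3, against 17571, 25585 and 28441 FPKM in control 1, 2 and 3. mt-Co2, which receives electrons from cytochrome c, was at 10192, 11871 and 10325 FPKM in cold water libraries and 9526, 12132 and 14188 FPKM in controls. The control libraries held both the lowest and the highest value of each, so the cold water range lay inside the control range. mt-Co3, the third large subunit, was at 8812, 9420 and 8345 FPKM in cold water libraries and 8268, 9382 and 11415 FPKM in controls. mt-Co1 was first and mt-Co2 second among the 13 messages in all 6 libraries, and mt-Co3 followed in 4 libraries and stood behind mt-Cytb in control 2 and control 3.

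mt-Cytb, the haem protein at the centre of the third respiratory complex, was at 7905, 9395 and 7800 FPKM in cold water libraries, against 7410, 9627 and 11751 FPKM in controls. With mt-Co3 and mt-Nd1 it took the places from 3 to 5, and these 3 genes changed places between libraries. Again control 1 was lowest and control 3 highest.

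The subunits of complex I, the NADH dehydrogenase at the entry of the chain, spanned a wide range of levels. mt-Nd1, which forms part of the quinone site, was at 7936, 8621 and 7472 FPKM in cold water libraries and 7794, 8993 and 11227 FPKM in controls. mt-Nd4, a proton-pumping subunit, averaged 4040 ± 305 FPKM in cold water and 4688 ± 1001 FPKM in control libraries. mt-Nd2, another pump subunit, was at 3439, 4084 and 3294 FPKM in cold water libraries, against 3437, 4539 and 5140 FPKM in controls. For these 3 genes the groups overlapped.

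Lower in the order, mt-Nd6, the sole message of the minus strand, averaged 3034 ± 456 FPKM in cold water and 3471 ± 743 FPKM in control libraries. mt-Nd4l, a small membrane subunit whose gene overlaps mt-Nd4 by 7 bases, averaged 2277 ± 353 and 2670 ± 964 FPKM in the same order, and mt-Nd5, the distal pump subunit, averaged 1911 ± 252 and 2171 ± 724 FPKM (SD, n = 3 each). In these 3 genes the SD among controls was larger than the gap between the group means. mt-Nd3, a small subunit, was the exception: it was at 1659, 1831 and 1689 FPKM in cold water libraries, against 2019, 2076 and 2428 FPKM in controls, and every cold water library was below every control.

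The ATP synthase messages share a region, since mt-Atp8 overlaps mt-Atp6 by 43 bases. mt-Atp8, a small subunit that helps hold the enzyme's stator together, was at 6114, 7071 and 5073 FPKM in cold water libraries and 3954, 7196 and 8933 FPKM in controls. mt-Atp6, which forms the proton path, was at 1968, 2454 and 1996 FPKM in cold water libraries and 1896, 2457 and 2964 FPKM in controls. Because copy and gene share their sequence, the places in the order of mt-Co1, mt-Co2, mt-Co3, mt-Atp6, mt-Nd3, mt-Nd4 and mt-Nd4l are uncertain. That of mt-Atp8 is uncertain too, since its overlap with mt-Atp6 lies within a copy. In all 6 libraries mt-Atp8 was 6th, mt-Nd4 7th, mt-Nd2 8th and mt-Nd6 9th, while mt-Nd4l, mt-Atp6, mt-Nd5 and mt-Nd3 exchanged the last places.

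**Figure D2:**
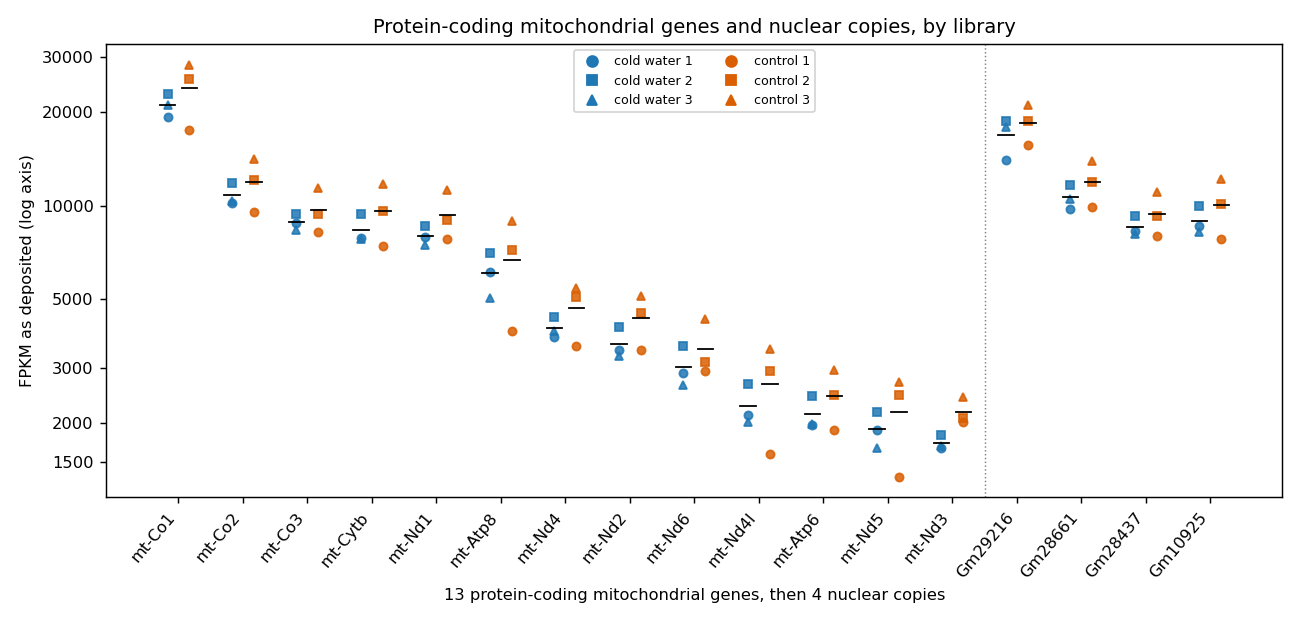
FPKM as deposited (vertical axis, log scale) of the 13 protein-coding mitochondrial genes, ordered by mean, and of the 4 nuclear copies, with 1 point per library and a bar at the group mean (n = 3 each). The control 3 triangle is the highest point of every gene shown, and mt-Nd3 is the gene without overlap between the groups.

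None of the 13 messages passed the test. All 13 log2 differences were below 0, from -0.33 to -0.13 with a median of -0.20, where 45.8% of the 12939 genes were below 0 and the median of all genes was 0.03. Adjusted p lay between 0.878 and 0.979 by edgeR's quasi-likelihood test. For mt-Co1 the 95% interval of the log2 difference ran from -1.05 to 0.71, and for mt-Cytb from -0.93 to 0.54. For mt-Nd3 the difference was -0.33 with an interval from -0.79 to 0.14 and an unadjusted p of 0.143, and it was -0.17 without control 3. Among the messages, 1 of 13 was lower without overlap of the groups, while 5.22% of all genes were lower and 5.30% higher without overlap.

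On the scaled count scale, the common direction rested on 1 library. By the unscaled share of counts, the difference stayed below 0 with any 1 library left out. It ran from -2.49 to -0.298 percentage points for the messages and from -0.64 to -0.067 for the copies. Control 3 was the highest library for all 13 messages and all 4 copies. In CPM (counts set against the library total after TMM scaling) it was at 1.296 to 1.64 times the higher of the other controls (median 1.42). On this scale the mean of control 1 and control 2 was 0.855 to 1.11 times the mean of the cold water libraries, with a median of 0.946. Without control 3, 3 of the 13 messages and 0 of the 4 copies were below 0 on this scale, and the median log2 differences were 0.06 and 0.07. With any other library left out, all 13 messages were below 0, with medians from -0.36 without control 1 to -0.10 without cold water 1. Control 3 also had the lowest summed level in 6 of 12 lists of cell type and segment markers, those of smooth muscle, red blood cells, crypt and cycling cells, macrophages, enteric neurons and glia, and ileum. The ileum sums were only 0.11 to 0.75 FPKM over the libraries. The neuron and glia sum was 4.76 FPKM in control 3 and 4.87 FPKM in cold water 3, nearly a tie. For 8 smooth muscle markers control 3 was at 231 FPKM, while the sums were 1099, 1762 and 436 FPKM in cold water libraries and 920 and 2161 FPKM in control 1 and 2. For 5 red blood cell markers it was at 85.8 FPKM, while the sums were 378, 454 and 437 FPKM in cold water libraries and 170 and 424 FPKM in control 1 and 2. The crypt sum was 178 FPKM in control 3 and 200 to 401 FPKM in cold water libraries. All 8 smooth muscle markers were at 1 FPKM or more in each library, and the part of these cells in the result was not tested.

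The ribosomal RNAs were low beside the messages. The kit named in the labels is made to remove mitochondrial as well as cytoplasmic rRNA, so these levels describe what removal left behind. mt-Rnr1, the small rRNA, was at 654, 678 and 974 FPKM in cold water 1, 2 and 3, against 953, 1197 and 895 FPKM in control 1, 2 and 3. mt-Rnr2, the large rRNA, was at 518, 610 and 815 FPKM in cold water libraries and 630, 1017 and 705 FPKM in controls. Cold water 1 was lowest and control 2 highest for both, and cold water 3 lay within the control range. The log2 difference was -0.35 for mt-Rnr1 (SE 0.25, 95% interval -0.95 to 0.24) and -0.22 for mt-Rnr2 (SE 0.29, interval -0.90 to 0.46), with adjusted p of 0.891 and 0.946 (edgeR). Both values moved with single libraries: without cold water 1 they were -0.19 for mt-Rnr1 and -0.031 for mt-Rnr2, without cold water 3 they were -0.69 and -0.55, and mt-Rnr2 was -0.074 without control 2 and -0.36 without control 1. Control 3 was not the highest library for either rRNA.

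The 22 tRNA genes are 59 to 75 bases long, much shorter than the mean insert of 300 bp, so a fragment of that size cannot lie within 1 of them. They made up 0.0140%, 0.0188% and 0.0135% of the counts in cold water 1, 2 and 3, against 0.0201%, 0.0234% and 0.0208% in control 1, 2 and 3. Their mean levels ranged from 1.29 FPKM for mt-Tv, the valine tRNA, to 809 FPKM for mt-Te, the glutamate tRNA. FPKM of genes shorter than the insert is not a firm level per length, so tRNA levels were compared between libraries. With the messages they were compared only as ratios of counts within a library. Since a fragment of the insert size reaches beyond the gene, all these values describe signal over tRNA genes. They are no measure of tRNAs already cut out, and how much of the signal came from longer RNA was not tested.

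No tRNA passed the adjusted test. Of the 22, 19 had a log2 difference below 0, with a median of -0.47. The exceptions were mt-Td at 0.55, mt-Ts1 at 0.33 and mt-Tf at 0.19, the tRNAs of aspartate, serine and phenylalanine. In CPM, 8 of the 22 had all cold water libraries below all controls, namely mt-Ta, mt-Tc, mt-Te, mt-Tg, mt-Tn, mt-Tv, mt-Tw and mt-Ty. That is 36.4% of the class beside the 5.22% of all genes, and 0 of the 22 were higher without overlap. By deposited FPKM 7 of the 22 kept this order, without mt-Ty. By CPM of the unscaled library total 6 did, without mt-Ty and mt-Tw. Of the 8, 5 lie side by side within 377 bases, where 1 fragment can reach several genes. The 8 are thus not independent, and how far the genes behind the share over all genes vary together was not tested. With 1 library left out, the number below 0 and the median depended on which it was: 16 of 22 and -0.32 without cold water 1, 21 of 22 and -0.86 without cold water 2, and 17 of 22 and -0.47 without control 3. For none of the 12 lists of cell type markers did the summed levels separate the groups.

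By edgeR's quasi-likelihood test, 0 of the 41 genes passed the adjusted threshold of 0.05, where 5 of 12939 genes or 0.0386% did. The lowest adjusted p among them was 0.878, and DESeq2 and limma also called 0 of the 41. At an unadjusted p under 0.05 there were 5 of the 41, all of them tRNA genes of the minus strand and all lower in cold water libraries: mt-Ta, mt-Tn, mt-Tc, mt-Ty and mt-Te. Over all genes 5.01% were under this limit in either direction and 2.13% in the lower direction. By strand of the annotation, these were 5 of the 8 minus-strand tRNAs and 0 of the 14 plus-strand tRNAs. Of the 5, 4 lie side by side and can share fragments. The strandedness of the libraries is not given, so reads over these genes may come from either strand. The median log2 difference was -0.50 on the minus strand and -0.47 on the plus strand.

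Among the 8 tRNAs without overlap were 5 that lie side by side in 377 bases between mt-Nd2 and mt-Co1, MT:4950-5326. They are the tRNAs of tryptophan, alanine, asparagine, cysteine and tyrosine, and the last 4 are read from the minus strand. The origin of light-strand replication lies within this cluster. The 5 tRNAs are printed 5′ to 3′ in the sense of the tRNA and as DNA letters, with the anticodon in capitals. mt-Tw, mt-Tc and mt-Ty were chosen for description, and the 5 were grouped, after their values were seen.
mt-Tw, MT:4950-5016, plus strand: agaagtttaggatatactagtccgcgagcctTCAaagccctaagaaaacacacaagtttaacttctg
mt-Ta, MT:5018-5086, minus strand: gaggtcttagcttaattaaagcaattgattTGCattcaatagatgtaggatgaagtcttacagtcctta
mt-Tn, MT:5089-5159, minus strand: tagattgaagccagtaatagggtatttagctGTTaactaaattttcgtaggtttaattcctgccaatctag
mt-Tc, MT:5192-5257, minus strand: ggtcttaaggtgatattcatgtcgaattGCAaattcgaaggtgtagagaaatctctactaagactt
mt-Ty, MT:5260-5326, minus strand: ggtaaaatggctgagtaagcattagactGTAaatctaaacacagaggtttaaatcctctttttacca

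mt-Ta, the alanine tRNA, was at 6.29, 9.43 and 6.72 CPM in cold water 1, 2 and 3, against 13.5, 13.04 and 12.7 CPM in control 1, 2 and 3. mt-Tn, the asparagine tRNA, was at 8.92, 13.2 and 9.39 CPM in cold water libraries, against 20.3, 18.7 and 16.2 CPM in controls. In both, cold water 2 was the highest of its group and still below the lowest control. The log2 difference was -0.81 for each, with a 95% interval from -1.33 to -0.28 for mt-Ta (unadjusted p = 0.00845) and from -1.32 to -0.29 for mt-Tn (unadjusted p = 0.00756), and an adjusted p of 0.878 for both (edgeR).

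mt-Tc, the cysteine tRNA, was at 5.18, 6.26 and 5.16 CPM in cold water libraries and 11.5, 11.8 and 7.06 CPM in controls, a log2 difference of -0.87. mt-Ty, the tyrosine tRNA, was at 4.74, 6.47 and 4.59 CPM in cold water libraries and 8.69, 9.85 and 6.55 CPM in controls, a difference of -0.67. In both, control 3 lay nearest to the cold water libraries, and for mt-Ty the gap between the groups was small. mt-Tw, the tryptophan tRNA, was at 2.63, 6.44 and 3.24 CPM in cold water libraries and 6.45, 8.38 and 7.13 CPM in controls, so that cold water 2 and control 1 nearly met. Its log2 difference of -0.84 had a 95% interval from -1.74 to 0.07.

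Summed over the 5 genes, the estimated counts were 2358, 3045 and 1888 in cold water 1, 2 and 3, against 4580, 4915 and 3486 in control 1, 2 and 3. The number of fragments behind these counts is not known for genes this short. In CPM of the unscaled library total the mean of this sum was 32.5 ± 8.12 in cold water and 57.9 ± 11.9 in control libraries (SD, n = 3 each), a ratio of 0.561. The 5 genes were taken from those already lower without overlap. The gap in their sum follows from that choice and is no further result. The neighbouring message mt-Nd2 did not share this order, with 3624, 4686 and 4198 CPM in cold water libraries and 3885, 4742 and 6504 CPM in controls. Set against mt-Nd2, the cluster gave 7.66, 8.92 and 6.93 counts per 1000 counts of mt-Nd2 in cold water libraries and 15.5, 13.03 and 7.63 in controls. Control 3 then lay within the cold water range, so the groups did not stay apart relative to the neighbouring message.

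**Figure D3:**
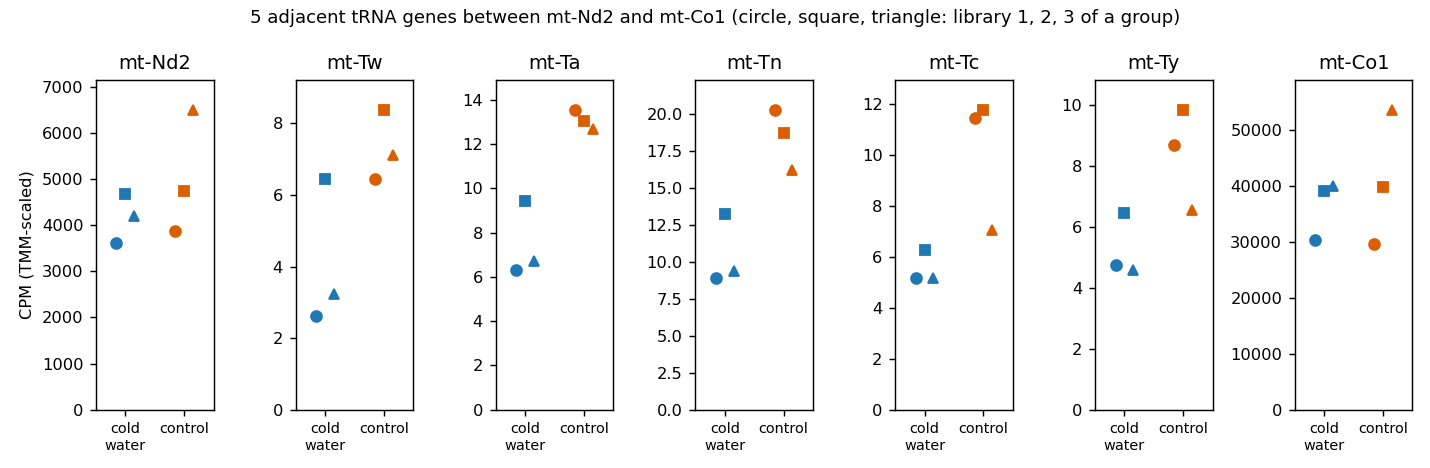
Scaled CPM (vertical axes, each from 0) of the 5 adjacent tRNA genes and of the messages on either side, mt-Nd2 and mt-Co1, with 1 point per library. The 3 cold water points lie below the 3 control points for each of the 5 tRNAs, by little for mt-Tw and mt-Ty, and the groups overlap for mt-Nd2 and mt-Co1. The 5 tRNAs were grouped after this order was seen.

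Of the tRNAs outside the cluster, mt-Te had the highest mean CPM. It was at 54.1, 56.2 and 54.2 CPM in cold water 1, 2 and 3, against 72.2, 60.1 and 74.2 CPM in control 1, 2 and 3, a log2 difference of -0.33 (SE 0.13, unadjusted p = 0.0424, adjusted p = 0.878 by edgeR). The 3 cold water libraries lay close together, below all controls. mt-Tp, the proline tRNA, averaged 22.8 ± 4.32 CPM in cold water and 26.8 ± 10.2 CPM in control libraries, mt-Tl1, a leucine tRNA, averaged 22.2 ± 7.95 and 31.8 ± 7.00 CPM, and mt-Tm, the methionine tRNA, averaged 8.65 ± 3.50 and 9.996 ± 3.29 CPM in the same order (SD, n = 3 each). These 3 overlapped between the groups.

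Some tRNAs had very low estimated counts. mt-Tv had estimated counts of 6, 6 and 5 in cold water libraries and 8, 14 and 8 in controls. mt-Ts2, a serine tRNA, had estimated counts of 6, 19 and 1 in cold water libraries and 18, 19 and 29 in controls, and its log2 difference of -1.34 had a 95% interval from -3.34 to 0.66. That mt-Tv did not overlap between the groups carries little weight at this depth. mt-Tg, the glycine tRNA, was better covered, with 95, 187 and 146 estimated counts in cold water libraries and 237, 234 and 274 in controls, and a log2 difference of -0.75 (95% interval -1.65 to 0.15). It lies between mt-Co3 and mt-Nd3, which both have a copy in the chromosome 1 block, and its own sharing was not tested.

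**Figure D4:**
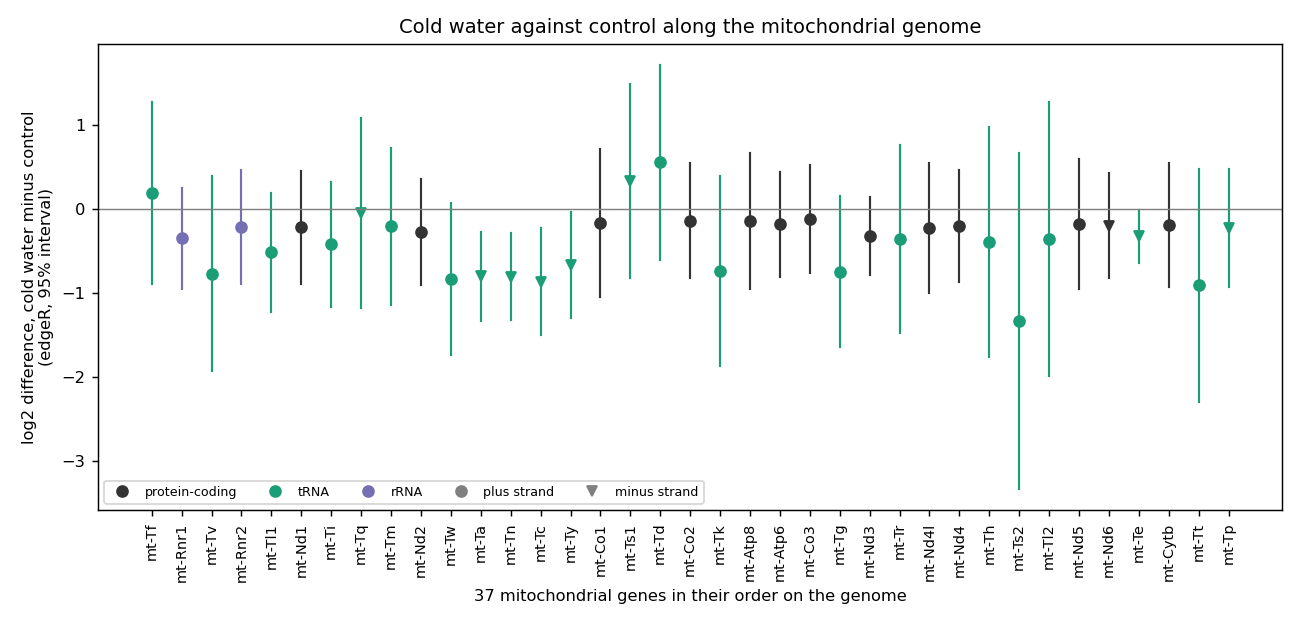
Log2 difference, cold water minus control (vertical axis, edgeR on scaled counts), of the 37 mitochondrial genes in their order on the genome, with 95% intervals as bars, colour for the class and the symbol for the strand. The intervals of mt-Ta, mt-Tn, mt-Tc, mt-Ty and mt-Te end below 0, and those of the messages and rRNAs all include 0.

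Summed by class, mitochondrial genes took 8.71%, 10.1% and 8.90% of the counts in cold water 1, 2 and 3, against 8.18%, 11.1% and 12.6% in control 1, 2 and 3. The groups overlapped, with means of 9.25% ± 0.772 in cold water and 10.6% ± 2.23 in control libraries (SD, n = 3 each; exact two-sided permutation p = 0.4). Nearly all of this was message: the 13 protein-coding genes took 9.04% ± 0.778 in cold water and 10.3% ± 2.22 in control libraries (exact permutation p = 0.4). The 4 nuclear copies took a further 2.84%, 3.43% and 3.05% of counts in cold water libraries and 2.88%, 3.47% and 4.03% in controls (exact permutation p = 0.4).

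The rRNA share was 0.193% ± 0.0443 in cold water and 0.243% ± 0.0518 in control libraries (SD, n = 3 each; exact permutation p = 0.3). The tRNA share was 0.0155% ± 0.00295 in cold water and 0.0214% ± 0.00172 in control libraries, and the groups did not overlap (exact permutation p = 0.1, the smallest that 3 against 3 libraries allow). Clopper-Pearson limits were taken with counts turned into fragments at the rate of long transcripts. The highest cold water share then had a 95% interval of 0.0182% to 0.0195%, and the lowest control share one of 0.0195% to 0.0208%. That rate is not known for genes as short as the tRNAs, and a fragment can reach several of them. The true counting error of the tRNA share is therefore not known, and these limits do not show that the groups are apart. They also leave out the spread between libraries. Adjusted over the 9 shares and ratios examined, the exact permutation p of each of these 5 shares was 0.6.

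Ratios within a library, which do not depend on scaling between libraries, left the groups overlapping. The log2 ratio of tRNA to message counts was -9.21 ± 0.145 in cold water and -8.89 ± 0.297 in control libraries (SD, n = 3 each; exact permutation p = 0.2, adjusted p = 0.6). That of rRNA to message was -5.57 ± 0.362 in cold water and -5.41 ± 0.375 in control libraries (exact permutation p = 0.9). The ratio of mt-Nd6 to the messages of the other strand was -5.69 ± 0.113 in cold water and -5.67 ± 0.183 in control libraries (exact permutation p = 0.9). With strandedness not given, it may not measure the balance of the strands. The ratio of nuclear copies to mitochondrial genes was -1.57 ± 0.0372 in cold water and -1.61 ± 0.0879 in control libraries (exact permutation p = 0.7). For the last 3 the p adjusted over the 9 values was 0.9.

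**Figure D5:**
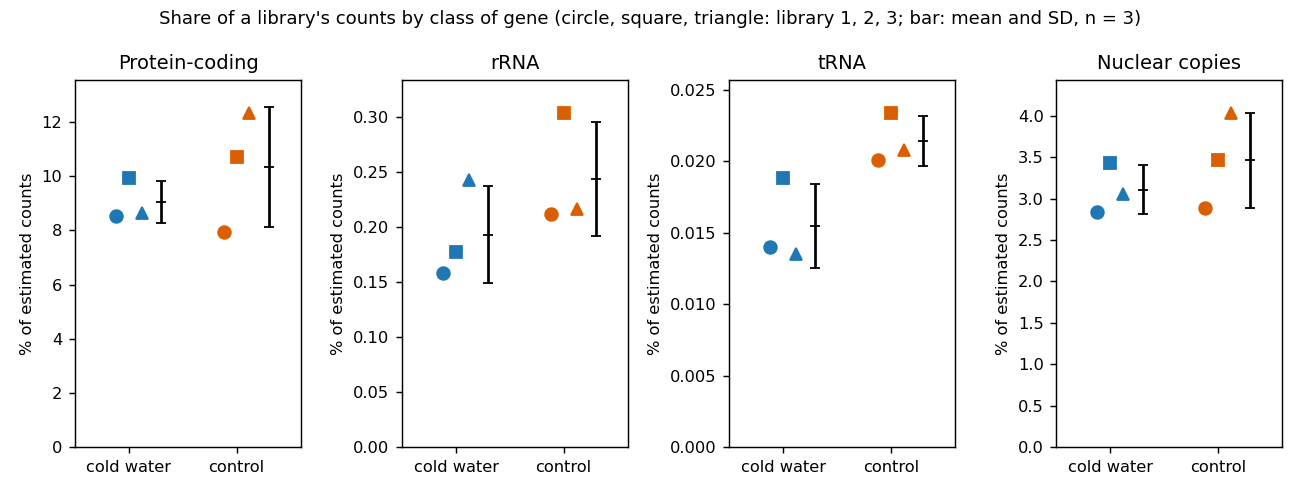
Share of a library's estimated counts in percent (vertical axes, each from 0) taken by protein-coding mitochondrial genes, rRNA genes, tRNA genes and the 4 nuclear copies, with 1 point per library and the group mean with SD beside it (n = 3 each). The tRNA shares do not overlap, with cold water libraries at 0.0135% to 0.0188% and controls at 0.0201% to 0.0234%, while the other 3 classes overlap.

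Nuclear genes that copy, transcribe and process the mitochondrial genome were read from fixed lists, and 0 of their genes passed the test (edgeR, adjusted p of 0.878 or more). Of 15 kept genes of mitochondrial DNA replication, 10 had a log2 difference below 0 and 5 above, with a median of -0.15. Polg2, the accessory subunit of the DNA polymerase, averaged 9.79 ± 1.33 CPM in cold water and 12.6 ± 3.39 CPM in control libraries. Mpv17, an inner membrane protein needed to maintain mitochondrial DNA, averaged 10.3 ± 1.35 CPM in cold water and 8.43 ± 1.00 CPM in control libraries. Of 7 kept transcription genes, 4 were below 0 and 3 above. Mterf4, of the termination factor family, averaged 7.52 ± 0.400 and 9.34 ± 1.12 CPM, and Tefm, the elongation factor, 4.74 ± 0.967 and 5.68 ± 0.704 CPM, cold water before control.

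For RNA processing and decay, 14 of 22 kept genes were below 0 and 8 above, with a median of -0.03. Mtpap, the mitochondrial poly(A) polymerase, averaged 16.2 ± 1.303 CPM in cold water and 19.7 ± 0.877 CPM in control libraries, without overlap. Pnpt1, a subunit of the RNA-degrading complex, averaged 22.5 ± 6.06 CPM in cold water and 29.4 ± 5.97 CPM in control libraries. The genes that mature and modify mitochondrial tRNAs were split, with 5 of 14 below 0 and 9 above. Cdk5rap1, which adds a methylthio group to some mitochondrial tRNAs, averaged 5.33 ± 0.758 CPM in cold water and 8.42 ± 1.77 CPM in control libraries (log2 difference -0.66, unadjusted p = 0.0369 and adjusted p = 0.878 by edgeR). Yrdc, of the threonylcarbamoyl modification, averaged 12.8 ± 2.49 and 17.4 ± 1.44 CPM in the same order.

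The enzymes that charge mitochondrial tRNAs were also split, with 7 of 18 kept genes below 0 and 11 above. Pars2, the prolyl-tRNA synthetase, was at 6.18, 1.44 and 4.72 CPM in cold water 1, 2 and 3, against 0.844, 0.955 and 1.38 CPM in control 1, 2 and 3. Cold water 2 almost met the highest control, and the log2 difference of 1.96 had an adjusted p of 0.878 (edgeR). Sars2, the seryl-tRNA synthetase, averaged 8.68 ± 0.798 CPM in cold water and 11.7 ± 1.40 CPM in control libraries.

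Of 10 biogenesis regulators, 3 were below 0 and 7 above, with a median of 0.27, or 0.11 without control 3. Their log2 differences ran from -1.11 to 0.36, so the largest was a decrease. Of the 10, 4 were higher without overlap, beside 5.30% of all genes. Gabpb2 and Gabpa, subunits of a factor that activates nuclear genes of the respiratory chain, averaged 50.6 ± 3.58 and 34.8 ± 3.29 CPM in cold water, against 40.1 ± 3.47 and 27.9 ± 2.19 CPM in control libraries. The 14 kept stress genes were 8 below 0 and 6 above. Atf4, the factor of the integrated stress response, averaged 228 ± 88.9 CPM in cold water and 324 ± 108 CPM in control libraries, and Yme1l1, an inner membrane protease, averaged 55.6 ± 7.77 and 46.7 ± 9.55 CPM in the same order. Of 7 genes of uncoupling and heat production, 2 were kept, Ucp2 with 549 ± 60.4 CPM in cold water and 577 ± 144 CPM in control libraries, and Prdm16 with 5.76 ± 1.501 and 6.72 ± 2.81 CPM. Ucp1, the uncoupling protein of brown fat, had a count of 0 in all 6 libraries.

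The nuclear subunits that join the mitochondrial proteins in complexes I, III, IV and V were mostly below 0, beside 45.8% of all genes. Of 29 genes, 26 had a log2 difference below 0 and 3 above, with a median of -0.16. Of the 29, 6 were lower without overlap, beside 5.22% of all genes. Cox7c and Cox5a, of cytochrome c oxidase, averaged 267 ± 3.16 and 320 ± 15.7 CPM in cold water, against 330 ± 44.4 and 399 ± 56.7 CPM in control libraries. Their log2 differences were -0.31 and -0.32, with adjusted p of 0.878 (edgeR). This too varied with the library left out, with 23 of the 29 below 0 and a median of -0.083 without control 1, 29 and -0.25 without control 2, and 23 and -0.14 without control 3.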

How the data were processed

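Per the labels' protocols, rRNA was removed from about 5 µg of total RNA (integrity number over 7.0), and libraries with an insert of 300 ± 50 bp were read from both ends. The submitters' processing notes name HISAT2 2.0.4, StringTie 1.3.4d, cutadapt 1.9, DESeq2, edgeR and FastQC 0.10.1. Not given in the sources used here were the tools' roles, the genome build, strandedness and the rule for reads with several places. Without strand, overlapping genes on opposite strands, such as mt-Nd5 and mt-Nd6 (14 bases), cannot be told apart where they overlap. Nor can reads over a mitochondrial gene be told from those of the opposite strand's precursor.

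Per the file headers, the authors deposited FPKM and an estimated count for each of 142604 transcripts. The deposited estimated counts equalled FPKM times length and a constant, rounded up, within a tolerance of 0.02 for 100% of the values checked. They are coverage estimates, with about 3.77 counts to a fragment on long transcripts, so intervals from counts are narrower than the fragments allow. For genes as short as the tRNAs the counts to a fragment are not known. A count of 0 was listed at 0.0001 FPKM. Coordinates of all 41 members equalled those of GENCODE M21 (GRCm38).

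Counts were summed by symbol, and genes with a mean of at least 1 FPKM were tested by edgeR 4.0.16 in R 4.3.3 (quasi-likelihood, TMM scaling factors of 0.895 to 1.11, group as sole term). DESeq2 1.42.0 and limma 3.58.1, on log2(FPKM + 1) or log2(FPKM + 0.1), were alternatives, beside other scalings and filters, copies added to their genes, and each library left out. Single values were compared by exact two-sided permutation tests. The edgeR script was tested on simulated counts. Members and lists were chosen with earlier results of these data known. All protein-coding, rRNA and copy members were named, the 6 tRNAs of highest mean FPKM, and the 2 genes of smallest p in each list. Other tRNAs were named after their values were seen. Of 219 list entries, 218 matched a symbol.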

Additional observations from a re-analysis of the deposited data

How the results depend on the processing

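The lowest adjusted p of any of the 41 genes over all settings was 0.109, by DESeq2, so 0 passed in any. Over all genes, 5 passed by edgeR, 71 by DESeq2, 3 each without scaling factors, without a filter, by limma with either pseudocount and with counts divided by the worth of 1 fragment, and 0 to 1 with a library left out. Same-numbered libraries deviated together with correlations of -0.03, 0.20 and 0.40, so the numbers did not pair them. With the replicate number as a block, 0 genes passed, and mt-Tq turned to 0.045. It was 0.030 by limma with a pseudocount of 1 and 0.035 with 0.1, where Prdm16 was 0.43 and 0.75. The cause was not tested. With a library left out, 22 (without control 3) to 40 of the 41 were below 0, and 20 of the 41 changed sign in some setting. The log2 differences then ran from -0.36 to 0.058 for mt-Co1, -0.29 to 0.080 for mt-Co2, -0.24 to 0.084 for mt-Co3, -0.36 to 0.057 for mt-Cytb, -0.35 to 0.011 for mt-Nd1, -0.50 to 0.0895 for mt-Nd4l, -0.44 to 0.0896 for mt-Nd5, -0.34 to 0.070 for mt-Nd6, -0.35 to 0.060 for mt-Atp6 and -0.43 to 0.21 for mt-Atp8. For the copies they ran from -0.27 to 0.069 for Gm29216, -0.28 to 0.052 for Gm28661, -0.26 to 0.071 for Gm28437 and -0.33 to 0.074 for Gm10925. For tRNAs they ran from -0.14 to 0.40 for mt-Tf, -0.38 to 0.30 for mt-Tq, -0.55 to 0.057 for mt-Tm, -0.15 to 0.77 for mt-Ts1, -1.14 to 0.11 for mt-Tl2 and -0.43 to 0.10 for mt-Tp. Prdm16 ran from -0.48 to 0.16 and Ucp2 from -0.23 to 0.13. The difference in the log2 ratio of mt-Nd6 to the other messages ran from -0.12 to 0.057, and that of copies to mitochondrial genes from -0.00107 to 0.082. Adding all 7 copies, dividing counts by the worth of 1 fragment and the other scales of overlap were chosen after seeing the data. Low counts limit some tRNAs, and removal of rRNA limits the rRNA levels.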
